A study of Mus musculus with 51 samples.

Results

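The transcriptome of mouse cells lacking both T-box factors *Eomes* and *T* was compared with that of WT cells on day 3 of directed differentiation to cardiac mesoderm. The comparison covers the genes with an FPKM (fragments counted on a gene, scaled to transcript length and to the mapped fragments of the library) above 1 in WT or in *Eomes*/*T* double knockout (dKO) cells, which were 11473 of the 24538 genes in the table. WT cells were F1G4 mouse embryonic stem cells (mESCs). The dKO line came from *Eomes* KO cells of the same F1G4 background, in which *T* was targeted with a Cas9 nickase and guide pairs placed around its promoter and the first exon, as had been done before for *Eomes*. Lines were grown from picked clones, so the dKO cells are of clonal origin and carry 2 rounds of cloning and transient puromycin selection that WT cells had not passed through. In every group, feeder cells were removed, aggregates were formed in hanging drops and plated on fibronectin, and the differentiation medium contained Bmp4 at 20 ng/ml. The labels give 2 samples for WT and 1 for dKO, and the deposited table holds a single pooled value per gene and condition. No SD or test can therefore be given, and none of the differences reported here has a replicate check. As an aid in reading them, a gene was counted as lower or higher in dKO cells when its log2 ratio to WT, with 0.1 FPKM added to both values, was below −1 or above 1.

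*Eomes* and *T* (Brachyury) are transcription factors with a T-box DNA-binding domain that are switched on in the posterior epiblast and primitive streak of the mouse gastrula. *Eomes* acts early, in cells that form cardiac mesoderm and definitive endoderm, and *T* is needed for posterior and axial mesoderm. Epiblast cells that become mesoderm leave the epithelium by epithelial-mesenchymal transition (EMT), under the influence of BMP, Nodal, WNT and FGF signals. The comparison addresses which genes of the differentiating cells depend on the presence of these factors.

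Of the 11473 genes, 600 (5.23%) were lower and 580 (5.06%) higher in dKO than in WT cells, together 1180 (10.3%). The median log2 ratio of all genes was −0.03, with quartiles of −0.33 and 0.29. Beyond a log2 ratio of 2 in size, 185 genes were lower and 174 higher. Lower genes had a median FPKM of 5.10 in WT and 1.26 in dKO cells, and higher genes 1.08 in WT and 3.88 in dKO cells. Of the lower genes 260 stood at FPKM 1 or less in dKO cells, and of the higher genes 271 did in WT cells. Such genes entered through the column in which they are high and could not have been called in the other direction. By RefSeq class, 554 of the lower and 435 of the higher genes were protein coding. As a scale for such counts, 492 of 11116 genes (4.43%) passed this fold between day 2 WT cells of the F1G4 line and of the WT line used in the *Smad4* experiment. The robust SD between those WT columns was 0.70 (log2) in the lowest and 0.20 in the highest of 10 expression groups. This scale includes the difference between those lines. At the border of the FPKM minimum, 148 genes with a higher value of at most 1.1 had a median log2 ratio of 0.16, and 177 genes just below the minimum, with a higher value above 0.9, had 0.11.

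**Figure D1:**
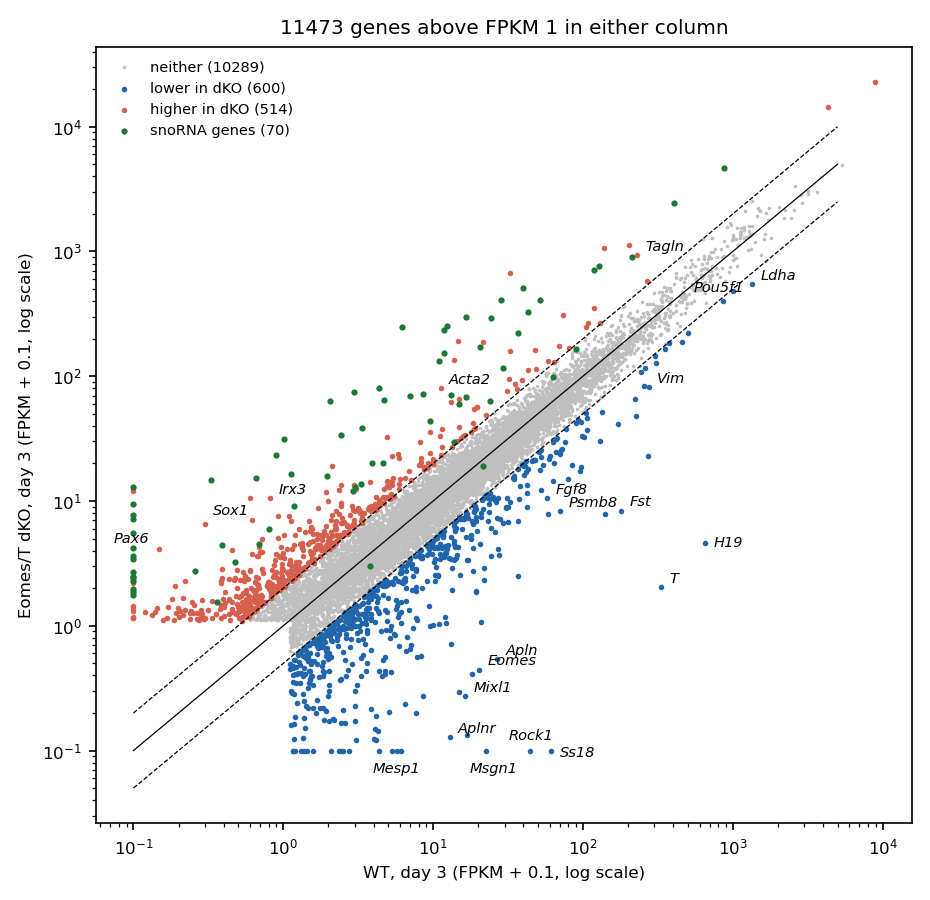
FPKM of each of the 11473 genes in WT (horizontal) and dKO cells (vertical) on day 3, both on log scales with 0.1 added, where each point is a gene, the solid line marks equal values and the dashed lines a log2 ratio of 1 and −1. *T*, *H19* and *Fst* lie far below the diagonal, *Sox1* and *Pax6* far above it, and 66 of the 70 examined small nucleolar RNA (snoRNA) genes are above the upper dashed line. Of these 70, 15 are listed at 0 in WT cells and were examined through the dKO column.

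The targeted genes were examined in all tables of F1G4 cells. *T* (chr17:8434423-8442496, mm10) stood at FPKM 332 in WT and 1.93 in dKO cells on day 3, a log2 ratio of −7.35. It stood at 4.46 in *Eomes* KO (E-KO) and 3.00 in *T* KO (T-KO) cells. *Eomes* (chr9:118478186-118486132, mm10) stood at 20.2 in WT and 0.346 in dKO cells, a log2 ratio of −5.51, with 0.276 in E-KO and 4.83 in T-KO cells. In WT cells *T* had risen from 0.0784 in the ES state through 0.778 on day 1 and 43.5 on day 2, while *Eomes* stood at 0.952, 2.38 and 9.50 at these stages. On day 2 dKO cells held 2.77 for *T* and 1.24 for *Eomes*, against 43.0 and 9.40 in WT cells of the same table. The levels of both genes in dKO cells thus lay below those of WT cells on either day. In E-KO cells of day 2, *T* stood at 22.3 and *Eomes* at 2.42, against 43.1 and 9.42 in the WT column beside them. In T-KO cells of day 2, *T* stood at 6.64 against 44.8 in WT cells. There *Eomes* stood at 24.7 against 9.81 in WT cells, above WT on day 2 and below it on day 3. A gene's FPKM covers all of its exons, and from which exons the remaining reads came was not resolved. The guides were placed around the promoter and the first exon, and so the 250 bases before a RefSeq transcript start of each gene are printed (GRCm38.p6, on the gene's strand), with the letters AGGTGT of the T-box core in capitals. They span chr9:118477939-118478188 for *Eomes* and chr17:8434173-8434422 for *T*, both on the plus strand. For *Eomes* this start lies 3 bases inside the span given for the gene, whose earliest transcript starts before it. The printed *T* bases open with the forward genotyping primer, which the study placed outside the deleted region, and hold none of its *T* guide sequences. Which of the other printed bases the deletions removed was not determined.
Eomes: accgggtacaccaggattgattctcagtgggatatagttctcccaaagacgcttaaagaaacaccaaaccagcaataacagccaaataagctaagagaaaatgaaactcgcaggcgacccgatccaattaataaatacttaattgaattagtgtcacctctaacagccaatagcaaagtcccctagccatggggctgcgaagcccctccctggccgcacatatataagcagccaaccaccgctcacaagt
T: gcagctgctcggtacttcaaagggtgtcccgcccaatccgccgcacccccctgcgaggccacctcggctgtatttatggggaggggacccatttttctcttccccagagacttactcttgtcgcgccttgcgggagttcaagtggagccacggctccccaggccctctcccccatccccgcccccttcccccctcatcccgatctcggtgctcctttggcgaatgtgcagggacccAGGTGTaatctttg

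Some other differences between dKO and WT cells were shared with E-KO and T-KO cells. The Y-linked genes *Uty*, *Eif2s3y* and *Ddx3y* stood at 5.99, 8.49 and 4.17 in WT cells. In dKO cells *Uty* was listed at 0 and the others stood at 0.175 and 0.0426. They were at most 0.0478 for *Uty*, 0.105 for *Eif2s3y* and 0.0518 for *Ddx3y* in the E-KO and T-KO columns as well. The 627 examined genes of chromosome 8 had a median log2 ratio of 0.22, whereas the medians of the other 18 autosomes and the X chromosome lay between −0.11 and −0.00. Chromosome 8 also had medians of 0.16 in dKO cells on day 2, 0.19 in E-KO and 0.23 in T-KO cells on day 3. Among the genes named below, the higher *Sox1*, *Irx3*, *Irx5*, *Tubb3*, *Foxf1*, *Esrp2* and *Acta1* and the lower *Dusp4* and *Cdh11* lie on it. The part of such differences in the results for single genes was not tested. Leaving out chromosomes 8 and Y, 580 genes were lower and 534 higher.

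Cell type markers were used to check the label of cardiac mesoderm progenitors. All 6 nascent mesoderm markers were above FPKM 1 in WT and 2 of 6 in dKO cells, and their summed FPKM was 112 and 20.8. All 6 are genes that the study named from these samples, so they are no independent check of the label or of a direction. The 4 markers of pluripotent epiblast were above FPKM 1 in both columns, with sums of 632 and 599. *Pou5f1* and *Nanog*, core pluripotency factors, stood at 483 and 123 in WT and at 441 and 113 in dKO cells. The 3 neural markers summed to 5.50 and 33.4. Of these, *Tubb3* stood at 5.25 and 22.9, and at 27.5 in WT cells of the ES state. *Sox1* and *Pax6* are also genes that the study named from these samples, so they are no independent check either. The 7 fibroblast markers were each below FPKM 1 in both columns, with sums of 2.09 and 3.07, and the trophoblast markers *Elf5* and *Cga* were listed at 0 in both. The sum of the 3 neural markers was higher and that of the mesoderm markers lower in dKO cells, while pluripotency and fibroblast sums were close. The wider list of neural fate genes, described below, had a median log2 ratio of 0.07. In bulk RNA, fewer cells of a type and less RNA per cell cannot be told apart.

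Of 12 genes on the list, 7 passed the FPKM minimum, through the WT column in each case, and all 7 were lower in dKO cells, with a median log2 ratio of −4.21. *Mixl1*, a homeobox factor of the primitive streak, stood at 16.2 in WT and 0.173 in dKO cells. *Msgn1*, a bHLH factor of presomitic mesoderm, stood at 22.4 in WT cells and was listed at 0 in dKO, E-KO and T-KO cells. *Mesp1*, the bHLH factor of early cardiac progenitors, stood at 5.65 in WT cells and was likewise listed at 0 in the KO lines. Their log2 ratios of −7.82 and −5.85 are set by the pseudocount. *Sp5*, a zinc finger factor induced by WNT signalling, stood at 13.1 in WT and 0.613 in dKO cells, with 0.273 in E-KO and 3.01 in T-KO cells. *Evx1* (5.11 and 0.326), *Gsc* (2.92 and 0.126) and *Lhx1* (1.31 and 0.126), homeobox factors of the streak and its anterior end, were lower by log2 ratios of −3.61, −3.74 and −2.64. On day 2, *Evx1* stood at 3.46 in WT and 3.22 in dKO cells, so that its day 3 value in dKO cells was below that of the day before. The 250 bases before the starts of *Mesp1* (chr7:79793591-79793840) and *Msgn1* (chr12:11208949-11209198), both on the minus strand of GRCm38, are printed as the promoters of the mesoderm genes listed at 0, with the letters AGGTGT (T-box core) and ATCAAAG or its reverse complement CTTTGAT (Tcf/Lef) in capitals.
Mesp1: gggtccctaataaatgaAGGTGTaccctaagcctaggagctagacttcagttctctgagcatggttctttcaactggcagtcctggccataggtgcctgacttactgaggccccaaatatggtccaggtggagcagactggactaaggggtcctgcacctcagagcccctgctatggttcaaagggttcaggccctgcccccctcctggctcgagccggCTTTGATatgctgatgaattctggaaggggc
Msgn1: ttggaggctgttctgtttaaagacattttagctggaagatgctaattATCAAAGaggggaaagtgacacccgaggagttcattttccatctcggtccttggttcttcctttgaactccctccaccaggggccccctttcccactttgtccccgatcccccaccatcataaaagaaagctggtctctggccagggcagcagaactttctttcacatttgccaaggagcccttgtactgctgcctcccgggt

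Genes of paraxial mesoderm followed in part. Of 14, 8 were examined, 4 were lower and 0 higher, with a median log2 ratio of −1.81. Among all examined genes 5.23% were lower. The 4 lower genes passed the FPKM minimum through the WT column only, so they could not have been called higher. Besides *Msgn1* these were *Rspo3*, a secreted WNT amplifier (18.1 in WT, 0.309 in dKO), *Cyp26a1*, which degrades retinoic acid (9.36 and 0.888), and *Dll3*, a Notch ligand family member of the presomitic mesoderm (2.33 and 0.274). *Tcf15*, a bHLH factor of somites, stood at 3.62 and 1.86, *Dll1* at 1.91 and 1.24, and *Lfng* at 3.72 and 2.64, and these did not pass the fold. Without *Msgn1*, whose ratio rests on a value of 0, the median was −0.93. On day 2 *Tcf15* stood at 3.17 in WT and 8.64 in dKO cells.

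Of 20 cardiac and lateral mesoderm regulators 8 were examined, 3 were lower and 2 higher, and the median log2 ratio was 0.20. *Isl1*, a LIM homeobox factor of the second heart field, stood at 1.36 in WT and 0.117 in dKO cells. *Pdgfra*, a receptor on nascent mesoderm, stood at 1.88 and 0.443, and *Bmp4* itself at 2.79 and 1.30. *Hand1*, a bHLH factor of lateral and extra-embryonic mesoderm, stood at 21.3 in WT and 32.2 in dKO cells, with 62.9 in E-KO and 29.5 in T-KO cells. *Tbx3* stood at 4.74 and 5.28. *Foxf1*, a forkhead factor of lateral mesoderm, was higher (0.741 and 1.69), as was *Smarcd3*, a cardiac chromatin remodelling subunit (0.396 and 1.32). Both higher genes were examined through the dKO column only, and the lower *Isl1* and *Pdgfra* through the WT column only. With a pseudocount of 1 the list held 1 lower and 0 higher genes. *Foxf1* lies on chromosome 8, whose examined genes had a median log2 ratio of 0.22. *Hand1* and *Tbx3* did not pass the fold in either direction. The remaining 12 genes, among them *Gata4* and *Kdr*, stayed at or below FPKM 0.67 in both columns.

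The study names 7 genes besides *Eomes* and *T* as needing both factors on day 3. All 7 were lower in dKO cells, with a median log2 ratio of −2.75, but the list was drawn up on these samples and is no independent evidence of direction. The list holds *Mesp1*, *Mixl1*, *Evx1* and *Isl1*, *Fgf8* (57.4 in WT, 10.5 in dKO), *Wnt3* (26.0 and 9.72) and *Aldh1a2*, a retinoic acid synthesis enzyme (1.05 and 0.306). *Fgf8*, an FGF of the streak, stood at 1.24 in E-KO and 16.8 in T-KO cells, and *Wnt3* at 3.00 and 7.47, so that for both genes the dKO value lay above the E-KO value. The comparisons of dKO, E-KO and T-KO cells share the WT samples, and values of the 3 lines are set side by side without a test. Of 15 genes the study names beside enhancers opened by the factors, also chosen on these samples, 12 were examined, 7 were lower and 0 higher. *Apln*, *Cdh2*, *Lhx1* and *Lef1* were among the lower ones, whereas *Nanog* (123 and 113), *Twist1* (4.62 and 4.36), *Zeb2* (2.48 and 2.47), *Crb2* (1.38 and 1.44) and *Myl4* (4.19 and 3.66) did not pass the fold.

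The apelin receptor and its ligands separated. *Aplnr*, a G protein-coupled receptor of migrating mesoderm, stood at 12.8 in WT and 0.0277 in dKO cells, and its ligand *Apln* at 26.7 and 0.439. The other ligand, *Apela*, stood at 131 and 99.3. *Cxcl12*, a chemokine, was higher, at 1.40 in WT and 4.60 in dKO cells, with 12.7 in E-KO cells. Of the 6 genes on this list 4 were examined.

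**Figure D2:**
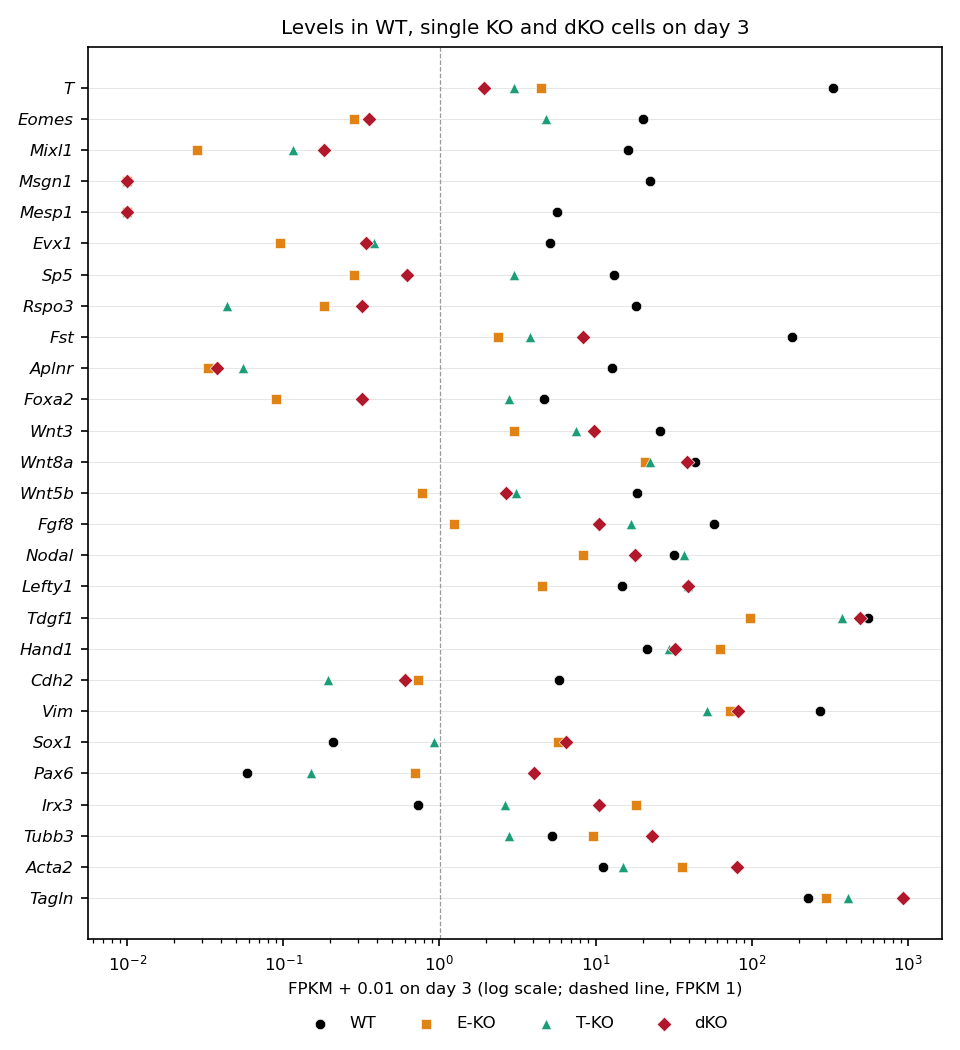
FPKM on day 3 (horizontal, log scale, 0.01 added) of 27 genes in WT cells and in the E-KO, T-KO and dKO lines, each symbol being a single pooled value. For *Msgn1* and *Mesp1* the symbols of the 3 KO lines coincide at 0. The dKO symbol lies to the right of the E-KO symbol for most of the genes, and to its left for *T*, *Hand1*, *Cdh2* and *Irx3*.

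Of 42 *Cdx* and *Hox* genes 7 were examined on day 3, 2 were lower and 3 higher, and the median log2 ratio was 0.46. On day 2 all 5 examined members were higher, with a day 2 median of 2.55 (log2) over the 7 genes. *Cdx2*, a caudal-type factor of the posterior embryo, stood at 7.55 in WT and 1.96 in dKO cells, and *Hoxb1* at 2.80 and 1.28. Among the higher genes, *Hoxa2* stood at 0.481 and 1.36, and *Hoxa5* at 0.0190 and 1.18. Both were examined through the dKO column only. In E-KO and T-KO cells *Hoxa5* was listed at 0, so that only the dKO column among these held *Hoxa5* above FPKM 1. On day 2 the dKO cells already held 6.35 of *Hoxb2*, against 0.177 in WT cells.

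WNT ligands moved in both directions. Of 19, 12 were examined, with 4 lower and 4 higher and a median log2 ratio of 0.31. Those lower in dKO cells were *Wnt3a* (1.93 in WT, 0.0718 in dKO), *Wnt5b* (18.4 and 2.67), *Wnt5a* (2.76 and 0.395) and *Wnt3*. These ligands are known from the primitive streak and tail bud. *Wnt8a*, another streak ligand and the ligand with the highest FPKM, stood at 43.3 in WT and 38.8 in dKO cells, with 20.7 in E-KO and 22.3 in T-KO cells. The higher ones were *Wnt7a* (0.914 and 5.26), *Wnt10b* (0.415 and 2.22), *Wnt11* (0.710 and 2.07) and *Wnt4* (3.97 and 9.37). Of these, *Wnt7a*, *Wnt10b* and *Wnt11* were examined through the dKO column only, and of the lower ligands *Wnt3a* and *Wnt5a* through the WT column only. Such genes could not have been called in the other direction. *Wnt7a* stood at 0.929 in E-KO and 0.850 in T-KO cells. Of 23 WNT targets and modulators 16 were examined, 6 were lower and 2 higher, with a median log2 ratio of −0.79. *Axin2*, a feedback inhibitor and general target of the pathway, stood at 14.0 in WT and 4.21 in dKO cells, the secreted inhibitor *Notum* at 1.97 and 0.465, the receptor *Fzd10* at 34.0 and 15.1, and the nuclear effector *Lef1* at 6.80 and 3.05. *Tcf7* stood at 17.5 and 8.71, with a log2 ratio of −0.99 that just missed the fold. The antagonist *Dkk1* was higher, at 9.01 and 18.3, a log2 ratio of 1.02 that became 0.91 with both columns rescaled to one sum and 0.95 with a pseudocount of 1. Under either setting the list held 0 higher genes.

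Of 15 Nodal pathway genes, 12 were examined, 1 was lower and 2 higher, and the median log2 ratio was −0.13. Of all examined genes 10.3% were called in either direction. *Nodal* stood at 32.0 in WT and 17.8 in dKO cells, a log2 ratio of −0.84, with 8.31 in E-KO and 37.1 in T-KO cells. Its coreceptor *Tdgf1* stood at 555 and 497, with 97.8 in E-KO cells. The feedback inhibitor *Lefty1* was higher, at 14.8 in WT and 39.4 in dKO cells, with 4.55 in E-KO and 39.1 in T-KO cells, while *Lefty2* stood at 40.9 in WT, 30.3 in dKO, 6.07 in E-KO and 13.6 in T-KO cells. *Gdf3*, a ligand of the same receptors, was higher (2.32 and 9.49), and the receptor *Acvr2b* was lower (9.20 and 4.44), with a log2 ratio of −1.03 that became −0.99 after quantile normalization. For *Nodal*, *Tdgf1*, *Lefty1* and *Lefty2* the dKO value exceeded that of E-KO cells, the line from which dKO cells were made.

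Of 14 direct BMP targets 12 were examined, 1 was lower and 2 were higher, and the median log2 ratio was 0.53. Among all examined genes 10.3% were called. *Id1*, *Id2* and *Id3*, inhibitors of bHLH factors that respond to BMP, stood at 30.3, 26.5 and 42.5 in WT and at 40.5, 41.7 and 49.1 in dKO cells. *Bambi*, a pseudoreceptor, was higher (2.12 and 5.86), as was *Id4* (2.02 and 4.46). The lower gene was *Msx1*, a homeobox factor, at 10.2 and 2.17, whereas its relative *Msx2* stood at 9.54 and 15.0. Among BMP ligands, receptors and antagonists 2 of 9 were lower and 1 was higher. *Fst*, the activin and BMP antagonist follistatin, had the widest difference of the group, at 181 in WT and 8.27 in dKO cells, with 2.35 in E-KO and 3.80 in T-KO cells. The antagonist *Nog* stood at 1.50 in WT and 3.11 in dKO cells, a log2 ratio of 1.00 that just passed the fold and became 0.92 with rescaled columns, with 1.36 in E-KO and 0.709 in T-KO cells. The type I receptor *Bmpr1a* stood at 37.5 and 36.2.

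FGF ligands and the feedback genes of the FGF/ERK pathway were lower in part. Among 10 examined ligands and receptors 4 were lower and 1, *Fgf15*, was higher. *Fgf5*, an FGF of the epiblast, stood at 27.0 in WT and 4.05 in dKO cells, with 1.15 in E-KO and 30.6 in T-KO cells. *Fgf8*, *Fgf3* (1.20 and 0.248) and *Fgf18* (1.16 and 0.321) were the other lower ligands, while the receptor *Fgfr1* stood at 28.7 and 30.7. *Fgf3* and *Fgf18* passed the FPKM minimum through the WT column only, so they could not have been called higher. Of 11 feedback genes, all of them examined, 5 were lower and 0 higher, with a median log2 ratio of −0.54. These were the ERK phosphatases *Dusp6* (71.3 and 25.5) and *Dusp4* (26.5 and 7.19), *Spry4* (6.29 and 2.27), *Il17rd* (16.6 and 7.32) and the ETS factor *Etv5* (18.9 and 9.02). On day 2 *Dusp6* stood at 62.6 in WT and 73.2 in dKO cells, and *Spry4* at 5.86 and 7.87.

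*Dll3* was the single lower gene among 11 examined Notch genes, with none higher, and the effector *Hes1* stood at 32.3 and 26.1. By comparison, 5.23% of all examined genes were lower and 5.06% higher. Of 10 retinoic acid genes 2 were lower and 3 higher. The lower ones were *Cyp26a1* and *Aldh1a2*, which degrade and make retinoic acid. The higher ones were the binding proteins *Crabp2* (19.4 and 56.8) and *Crabp1* (1.44 and 5.85) and the receptor *Rarb* (0.147 and 1.45). *Rarb* passed the FPKM minimum through the dKO column only, and *Cyp26a1* and *Aldh1a2* through the WT column only.

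Genes of EMT and of epithelia were compared next. Of 15 EMT regulators and mesenchymal genes 9 were examined, 4 were lower and 0 higher. *Cdh2*, N-cadherin, stood at 5.78 in WT and 0.592 in dKO cells, the intermediate filament gene *Vim* at 275 and 81.2, *Cdh11* at 1.14 and 0.309, and fibronectin *Fn1* at 18.7 and 8.03. *Fn1* stood at 22.1 in E-KO and 4.26 in T-KO cells. *Cdh2* and *Cdh11* passed the FPKM minimum through the WT column only, so they could not have been called higher. The EMT transcription factors *Zeb2* and *Twist1* had log2 ratios of −0.01 and −0.08. Of 20 epithelial genes 19 were examined, 0 were lower and 1 was higher, and the median log2 ratio was 0.44. *Cdh1*, E-cadherin, stood at 143 in WT and 209 in dKO cells, *Cldn4* at 103 and 195, *Krt8* at 642 and 870, and *Epcam* at 257 and 225. The gene counted as higher was *Esrp2*, a splicing regulator of epithelia, at 2.46 and 5.34, a log2 ratio of 1.09 that became 0.99 with rescaled columns. *Esrp2* lies on chromosome 8, whose examined genes had a median log2 ratio of 0.22.

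Some neural fate genes were higher in dKO cells. Of 33, 18 were examined, 6 were higher and 1 lower, while the median log2 ratio of the list was 0.07. Of all examined genes 5.06% were higher and 5.23% lower. *Pax6*, *Sox1*, *Irx3* and *Irx5* passed the FPKM minimum through the dKO column only, so they could not have been called lower. *Pax6*, a paired-box factor of neuroectoderm, stood at 0.0488 in WT and 4.03 in dKO cells, with 0.691 in E-KO and 0.141 in T-KO cells. *Sox1*, the earliest marker of neuroectoderm, stood at 0.198 and 6.49, with 5.75 in E-KO and 0.914 in T-KO cells. *Irx3* (0.716 and 10.5) and *Irx5* (0.119 and 2.18), neighbouring Iroquois homeobox genes, were higher too, as were *Tubb3*, a neuronal tubulin (5.25 and 22.9), and *Tal2* (1.42 and 3.84). Of the higher genes, *Sox1*, *Irx3*, *Irx5* and *Tubb3* lie on chromosome 8, whose examined genes had a median log2 ratio of 0.22. The part of this in their ratios was not tested. *Fabp7*, a fatty acid binding protein of radial glia, was the lower one, at 9.91 and 0.908, and passed through the WT column only. Broad neural genes with higher levels did not pass the fold, as for *Sox2* (21.1 and 35.8), *Nes* (26.4 and 24.7), *Sox11* (24.7 and 15.8), *Zic2* (15.4 and 18.2) and *Otx2* (12.0 and 10.0). *Pax6* and *Sox1* had stood at 4.23 and 5.17 in dKO cells on day 2, against 0.100 and 0.200 in WT cells.

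Of 20 core and formative pluripotency genes, all examined, 1 was lower and 2 were higher, while 10.3% of all examined genes were called. The lower one was *Fgf5*, and the higher ones were *Dppa2* (0.994 and 3.03) and *Utf1* (4.31 and 9.71). The de novo methyltransferase *Dnmt3b* stood at 94.9 and 69.0. Among 13 examined genes of naive pluripotency 0 were lower and 1 was higher, *Dppa5a*, at 104 in WT and 250 in dKO cells, with 51.9 in E-KO and 119 in T-KO cells. *Zfp42* stood at 12.5 and 17.8 and *Dppa3* at 16.6 and 16.1.

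Genes of other lineages were examined as well. Of 18 definitive endoderm genes 7 were examined, 3 were lower and 1 was higher, while 10.3% of all examined genes were called. The lower *Foxa2*, *Gsc* and *Lhx1* passed the FPKM minimum through the WT column only, and the higher *Ttr* through the dKO column only. None of them could have been called in the other direction. *Foxa2*, a forkhead factor of endoderm and axial mesoderm, stood at 4.68 in WT and 0.310 in dKO cells, with 0.0791 in E-KO and 2.80 in T-KO cells. *Ttr* was listed at 0 in WT and stood at 1.25 in dKO cells. *Etv2*, an ETS factor of blood and endothelial progenitors, was the only lower gene of 6 examined on that list, at 2.47 and 0.990, with none higher. It too passed through the WT column only. Of 12 trophoblast and amnion-associated genes 3 were lower and 1 was higher. *Igfbp3*, a secreted IGF-binding protein, stood at 227 and 47.5, and the keratin gene *Krt7* was higher, at 48.2 and 113.

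**Figure D3:**
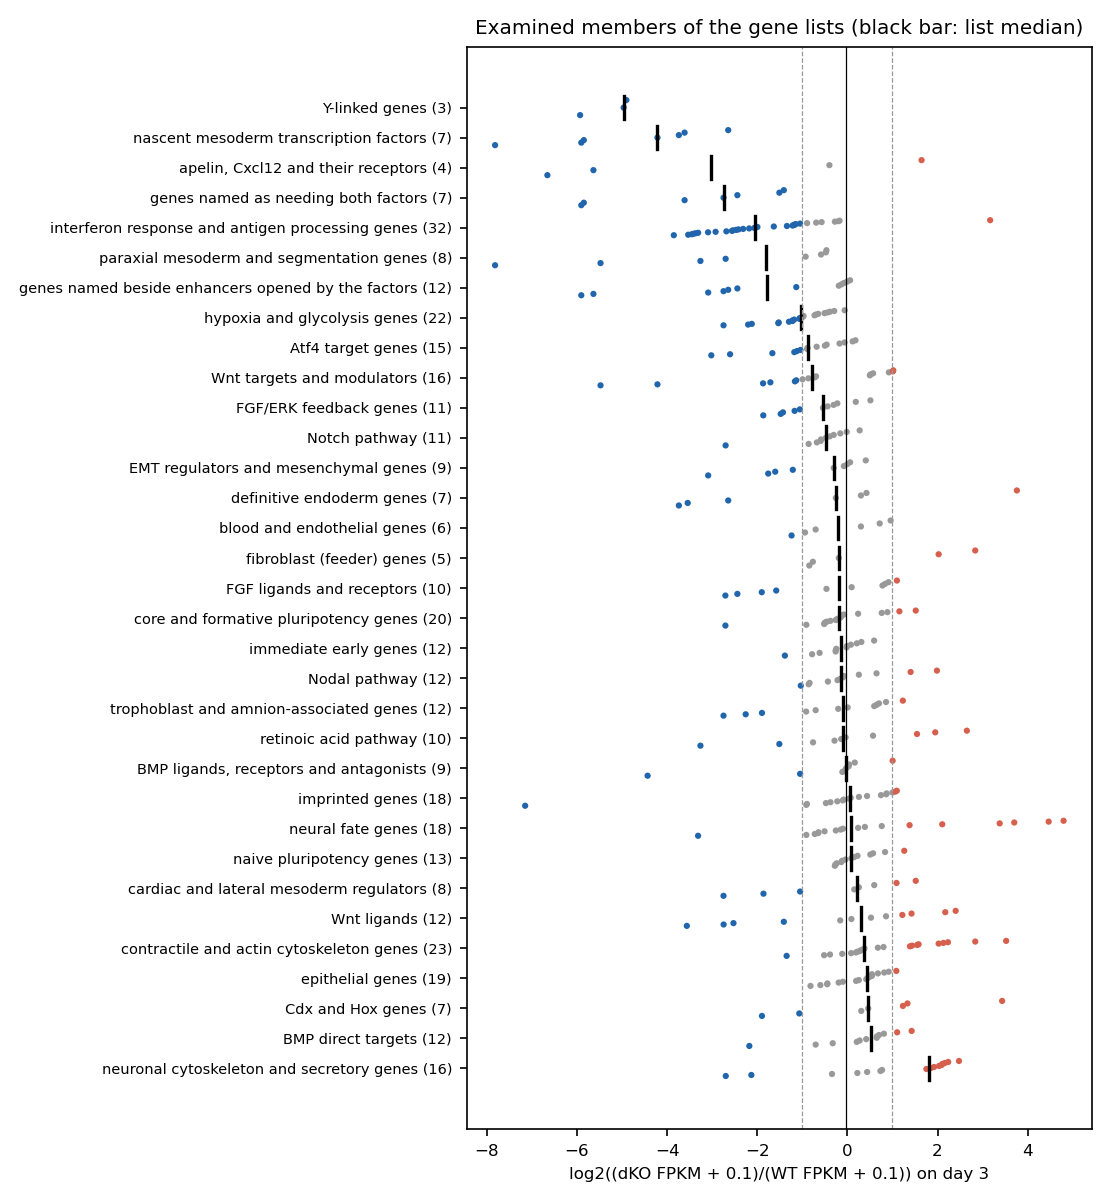
Log2 ratio of dKO to WT on day 3 (horizontal) for each examined member of 33 gene lists (vertical, number examined in brackets), with lower genes in blue, higher genes in red and others in grey. Black bars are list medians, the thin solid line is the median of all examined genes and dashed lines mark −1 and 1. Nascent mesoderm factors all lie left of −1, while neural fate and WNT ligand members spread over both sides.

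Many genes of hypoxia and glycolysis were lower. Of 23, 22 were examined, 12 were lower and 0 higher, and all 22 had a log2 ratio below 0, with a median of −1.04. *Ldha*, lactate dehydrogenase, stood at 1343 in WT and 547 in dKO cells, and *Pgk1*, *Aldoa* and *Tpi1* of the glycolytic chain at 503, 998 and 304 in WT and at 222, 478 and 146 in dKO cells. *Bnip3*, a mitophagy gene induced by hypoxia, stood at 84.9 and 19.4, *Egln3*, an oxygen-sensing hydroxylase, at 25.9 and 5.54, and *Ndrg1* at 24.2 and 3.52. The glucose transporter *Slc2a1* stood at 471 and 452. The median of the same genes was −0.42 in E-KO and −0.26 in T-KO cells on day 3 and 0.01 in dKO cells on day 2. *Bnip3* stood at 74.5 in E-KO and 58.8 in T-KO cells.

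Targets of the stress factor Atf4 were lower in 6 of 15 examined genes, with none higher and a median of −0.88. They include *Chac1* (3.76 in WT, 0.535 in dKO), *Cth*, a cysteine synthesis enzyme (64.2 and 20.2), and *Mthfd2* of mitochondrial folate metabolism (47.8 and 21.1). *Atf4* itself stood at 205 and 182. Among 12 examined immediate early genes 1 was lower, *Nr4a1* (2.30 and 0.818), and none higher, and *Fos* stood at 4.20 and 3.49. By comparison, 5.23% of all examined genes were lower and 5.06% higher. Among 18 imprinted genes 1 was lower and 2 were higher, while 10.3% of all examined genes were called. The lower one, the maternally expressed *H19*, stood at 651 in WT and 4.49 in dKO cells, with 3.25 in E-KO and 3.10 in T-KO cells. Its neighbour *Igf2*, expressed from the paternal allele, stood at 118 in WT, 197 in dKO, 422 in E-KO and 239 in T-KO cells. On day 2 *H19* stood at 127 in WT and 1.16 in dKO cells.

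The following 3 lists were drawn up after the values had been seen and carry no weight beyond description. Of 35 interferon-response and antigen-processing genes 32 were examined, 25 were lower and 1 was higher, with a median log2 ratio of −2.05. *Psmb8*, a subunit of the immunoproteasome, stood at 70.6 in WT and 8.20 in dKO cells, *Irgm1*, an interferon-induced GTPase, at 95.4 and 17.2, the ubiquitin-like *Isg15* at 19.1 and 1.76, and the transcription factor *Irf1* at 79.5 and 14.8. *B2m* stood at 56.6 and 46.7. The chemokine *Cxcl10* was the higher gene, at 2.01 and 18.9. The median of the list was −2.40 in E-KO and −1.54 in T-KO cells, and *Psmb8* stood at 5.22 and 14.6 there. In WT cells *Psmb8* was higher on day 3 than on day 2 (5.82) and *Isg15* likewise (1.18 on day 2).

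Of 25 contractile and actin cytoskeleton genes 23 were examined, 9 were higher and 1 was lower. *Tagln*, an actin-binding protein of smooth muscle, stood at 230 in WT and 936 in dKO cells, smooth muscle actin *Acta2* at 11.1 and 80.1, skeletal actin *Acta1* at 14.9 and 65.3, and the myosin light chain *Myl9* at 13.1 and 61.7. *Srf*, the transcription factor of many such genes, stood at 14.7 and 11.2. *Tagln* and *Acta2*, which fibroblasts express too, made up the 2 higher members of the fibroblast list, on which 5 of 12 genes were examined and none was lower, while the collagen genes *Col1a1* (0.488 and 0.525) and *Col1a2* (0.488 and 0.426) stayed near their WT levels. Of 20 neuronal cytoskeleton and secretory genes 16 were examined, 9 were higher and 2 lower. *Trh*, a hormone precursor, stood at 73.0 and 311, *Gap43*, a growth cone protein, at 8.12 and 29.6, *Uchl1* at 9.37 and 35.8, and *Stmn3*, a microtubule regulator, at 2.33 and 13.4. The neurofilament gene *Nefl* was lower, at 29.1 and 6.57.

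Among genes above 0 in both columns whose larger FPKM was 10 or more, the lowest log2 ratios were those of *T*, *H19*, *Arg1*, *Aplnr*, *Mixl1*, *Eif3j1*, *Apln*, *Eomes*, *Rspo3* and *Fst*. *Arg1*, arginase, stood at 16.6 in WT and 0.0334 in dKO cells, with 0.0277 in E-KO and 0.0362 in T-KO cells. *Eif3j1* shares sequence with its close copy *Eif3j2*, and with the FPKM of both summed the log2 ratio was 0.09 in place of −5.67, so that no change of this gene is read from the table. The same holds for the ribosomal copies *Rpl37rt* and *Rplp2-ps1*, which stood at 273 and 140 in WT and at 22.8 and 7.84 in dKO cells. Summed with *Rpl37* and *Rplp2* they had log2 ratios of 0.14 and −0.07. *Rps27* stood at 21.6 and 188, and with *Rps27rt* its log2 ratio was 0.63 in place of 3.12.

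The 10 highest log2 ratios under the same rule belonged to snoRNA genes and to *Rnu12*, a small nuclear RNA gene of the spliceosome, with *Snord83b*, *Snora81* and *Snord118* at the top. Of 70 examined snoRNA genes, which guide the modification of ribosomal and spliceosomal RNA, 66 were higher and 0 lower, with a median log2 ratio of 3.52. Of the 70, 15 were listed at 0 in WT cells and passed the FPKM minimum through the dKO column. Others, such as *Snord83b* (0.231 in WT) and *Snord118* (0.910), also passed through that column only. Such genes could not have been called lower, so the count and the median rest in part on the filter. The summed FPKM of all snoRNA genes, examined or not, was 2417 in WT and 14682 in dKO cells. Short RNA classes together had 81 of 88 genes higher. The snoRNA median was 2.69 in dKO cells on day 2, 0.00 in E-KO and 0.83 in T-KO cells. Among protein-coding genes the log2 ratio on day 3 was related to the genomic span of the gene, with medians from 0.12 in the shortest to −0.17 in the longest of 10 equal groups. On day 2 these medians were 0.25 and −0.27 in dKO cells, and on day 3 they were −0.25 and 0.22 in E-KO cells, the opposite order. The part of fragment size or RNA quality in these values was not tested. Among protein-coding genes of that level, those with the highest log2 ratios were *Irx3*, *Cxcl10*, *Rps27*, *Acta2*, *Fmr1nb* and *Stmn3*. *Fmr1nb*, a cancer-testis gene on the X chromosome, stood at 4.79 in WT and 32.3 in dKO cells. Its day 2 values were 4.04 and 33.3.

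Values of 0 need care in these tables. Of the examined genes 19 were listed at 0 in dKO and 25 in WT cells, 15 of the latter being snoRNA genes. *Ss18*, a chromatin remodelling subunit, and *Rock1*, a kinase of the actin cytoskeleton, stood at 61.3 and 44.0 in WT cells and were listed at 0 in dKO cells on day 3. On day 2 they stood at 59.6 and 26.1 in dKO cells, and on day 3 at 47.5 and 35.8 in E-KO cells. Such a 0 can be a failed estimate, and both genes are counted among the 600 only formally.

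**Figure D4:**
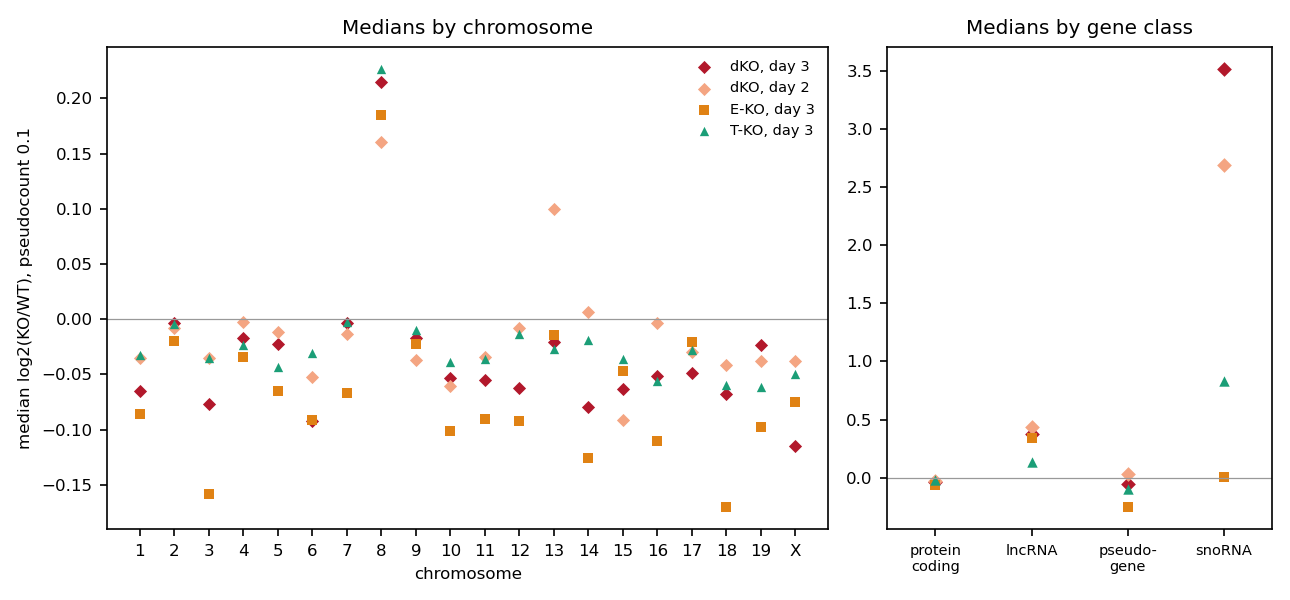
Median log2 ratio of KO to WT by chromosome (left) and by gene class (right) for dKO cells on days 3 and 2 and for E-KO and T-KO cells on day 3, with the Y chromosome left out of the plot. Chromosome 8 stands at 0.22 on day 3 in dKO cells, above the other chromosomes, and the snoRNA class reaches 3.52.

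The dKO cells of day 2 gave another pair of columns, from the same clone. On day 2, 448 of 11195 genes (4.00%) were lower and 373 (3.33%) higher. Of the 600 genes lower on day 3, 441 were examined on day 2, and of these 153 (34.7%) were lower on that day too and 11 (2.49%) higher. Of the 580 genes higher on day 3, 466 were examined on day 2, with 159 (34.1%) higher and 7 (1.50%) lower. Seen from day 2, these are 34.2% of its lower and 42.6% of its higher genes. Among protein-coding genes alone, 137 of 402 lower genes were lower again and 74 of 346 higher genes were higher again, a share of 21.4% for the latter. Both days come from the same clone, so the loss of the factors and other properties of the line cannot be told apart.

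Some genes differed on both days and others on day 3 only by the fold rule. *Sox1* and *Pax6* were above WT on both days, whereas *Acta2* (3.80 in WT, 4.22 in dKO), *Ldha* (887 and 1210.1) and *Wnt5b* (8.61 and 9.44) were close to or above WT on day 2 and differed on day 3. For *Cdx2* the order turned, with 0.609 in WT and 3.66 in dKO cells on day 2, and for *Hoxb1* as well, with 0.0435 and 1.02. Genes lower in dKO cells on day 3 had often risen in WT cells before, with 227 of 600 (37.8%) at a log2 ratio above 1 between the ES state and day 2, against 1712 of 11456 (14.9%) of all examined genes. Of the higher genes 199 of 580 (34.3%) had risen as well, so that genes that had risen in WT cells were found on both sides.

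**Figure D5:**
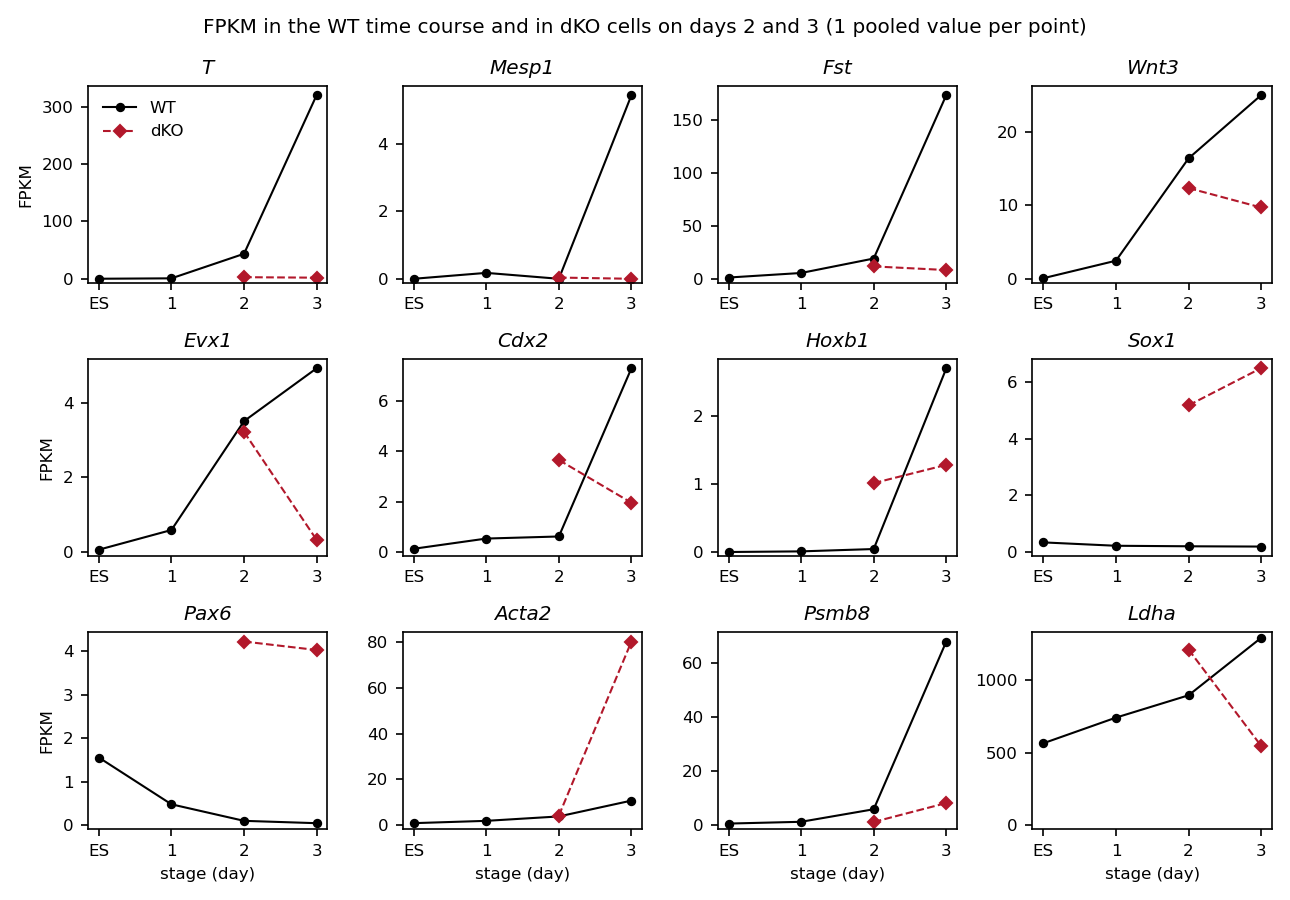
FPKM (vertical, linear) of 12 genes in WT cells of the ES state and days 1 to 3 (black, from the time-course table) and in dKO cells on days 2 and 3 (red, from the dKO tables, which were scaled separately), each point a single pooled value. *T*, *Mesp1* and *Fst* reach higher values in WT than in dKO cells on day 3, *Evx1* and *Ldha* drop in dKO cells from day 2 to day 3, and *Sox1* and *Pax6* stand above WT on both days.

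Promoter letters were counted as a description. The T-box motif AGGTGTGA or its reverse complement TCACACCT lay in the 250 bases before the start of 12 of 438 lower genes with a RefSeq promoter (2.74%), 3 of 341 higher genes (0.88%), 76 of 8944 examined genes (0.85%) and 350 of 27025 genes in all (1.30%). The core letters AGGTGT or ACACCT, which the longer motif contains, were found in 15.3% of lower, 10.3% of higher, 11.1% of examined and 13.6% of all genes. The Tcf/Lef letters ATCAAAG or CTTTGAT were found in 4.11%, 3.52%, 2.67% and 3.72%. Of the 12 lower genes with the long motif, *Pgm2*, a sugar phosphate mutase (70.6 in WT, 23.8 in dKO), and *Sgk1*, a serum-induced kinase (52.3 and 12.2), had the highest FPKM. Their sites are printed with 10 or fewer bases on either side on the gene's strand, from chr5:64092689-64092714 and chr10:21978470-21978497, with the motif in capitals. The motif starts 242 bases before the start of *Pgm2* and 192 before that of *Sgk1*.
Pgm2: agcatctcAGGTGTGAtgggcaccaa
Sgk1: ataattcactTCACACCTaagagctttg
The printed promoters of *Eomes*, *T*, *Mesp1* and *Msgn1* hold no copy of the long motif. A match marks letters in a window and not a bound site.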

How the data were processed

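Gene expression was measured by RNA-seq of total RNA. Per the labels and the methods of the study, strand-specific ScriptSeq libraries were sequenced paired-end, and the authors trimmed reads with cutadapt (2.9), aligned them with HISAT2 (2.1.0) to mm10 and computed the deposited FPKM values with Cuffdiff (2.2.1), with multi-read and bias correction and the refSeq annotation. Versions are from the submitters' processing notes. Each table holds 1 pooled FPKM value per gene and condition. The labels list 1 sample for dKO on day 3, while the study's legends speak of averages over 2 replicates, so the number of samples behind the KO columns is unclear. Read counts were not used here, and depth and counting precision are unknown.

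Log2 ratios were taken within a table as log2((KO + 0.1)/(WT + 0.1)) for genes with FPKM above 1 in either column, and a gene was called beyond 1 or −1. No test was possible. The WT columns of day 3 in the E-KO and T-KO tables were 1.01 and 0.971 times that of the dKO table. The members and the 31 gene lists were chosen with earlier results of these data known, and 3 further lists after the values were seen. Genes named were *Eomes* and *T*, in each list up to 5 examined members with the widest ratio and the 2 with the highest FPKM, the 10 lowest and 10 highest ratios among called genes with FPKM of at least 10 and above 0 in both columns, and genes the study names for dKO cells on day 3. Other genes named were chosen after their values were seen. Some genes that the rule names are not reported here. Gene classes, positions and promoters are from RefSeq (GRCm38.p6, the build of mm10), which matched 11182 of the 11473 examined symbols. Duplicate names in the time-course table were dropped. Between WT lines, the robust SD (1.4826 times the median absolute deviation) was taken in 10 groups of genes by level. The call step was tested on simulated data. Python 3.11.15, numpy 2.4.6, pandas 2.3.3 and matplotlib 3.10.9 were used. Alternatives changed the pseudocount, the FPKM minimum, the scaling, the fold and the genes counted.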

Additional observations from a re-analysis of the deposited data

Results flagged for a closer look

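Of the genes named by rule and the protein-coding genes with the widest ratios, 5 were called in opposite directions in dKO cells on day 3 and in another comparison with WT cells. *Cdx2* had log2 ratios of −1.89 on day 3 and 2.41 on day 2, and *Hoxb1* of −1.07 and 2.96. *Lefty1* had 1.40 in dKO and −1.69 in E-KO cells on day 3, and *Dppa5a* 1.26 and −1.01. *Rps27*, which has a close copy, had 3.12 and −2.09. Each comparison is a single pair of pooled values, and the difference was not tested.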

How the results depend on the processing

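The counts of lower, higher and all called genes (600, 580 and 1180) moved by over 1.5 times with a pseudocount of 1 (376, 302 and 678), with an FPKM minimum of 5 (302, 241 and 543) and without a minimum (1058, 1319 and 2377). A fold of 4 left 359 called genes. Rescaling both columns to the same sum, which shifted the median log2 ratio of all genes from −0.03 to −0.14, gave 953 lower genes. It also raised the FPKM values against the fixed minimum and pseudocount, so that 12584 genes were examined. With a pseudocount of 1, which lowers the ratios of low genes by construction, the single calls of *Etv2* (−0.80), *Nr4a1* (−0.86) and *Fgf15* (0.75) were lost as well. The cause was not tested. Higher genes of day 3 that were higher on day 2 as well made up 34.1%, and 15.7% with equal sums without short RNA genes or 21.4% of protein-coding genes, which leave out the snoRNA genes by construction. Centring, quantile normalization, protein-coding genes only, and leaving out genes listed at 0 or chromosomes 8 and Y kept the counts within 1.5 times. Protein-coding genes only and the last pair were chosen after seeing the data. Of 272 list medians under an alternative 31 moved by more than the scale between WT lines, and of 1338 values of named genes 74, and no called value turned its sign. No paired analysis was possible because each condition has a single pooled column, and leaving out a replicate was not possible for the same reason. Depth limits all values of low genes.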
